A study of Mus musculus with 4 samples.

Results

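Proteasome genes were read on 4 one-colour Agilent arrays, each holding RNA of 1 culture of NIH-3T3 cells, an established line of mouse fibroblasts. Members were all genes whose mouse symbol is Psm followed by a letter from a to g and a number, leaving out Psmb8 and Psmb9, and 45 such genes were measured among 36838 gene names. Of these, 43 were well above background on all 4 arrays, so no member entered a comparison through 1 group alone. Psma8, an alpha subunit of male germ cells, and Psmb11, a beta subunit of the thymic cortex, were not well above background on any array and received no fold change, and no probe was matched to Psme2.

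The cells carry the label WT. The untreated culture is labelled as having no treatment, and the other cultures were taken to confluency and then exposed to AR7, CA39 or CA77, each at 20 µM for 24 h. These are small molecules developed to raise chaperone-mediated autophagy, the lysosomal uptake of single proteins. AR7 is the earlier compound, and CA39 and CA77 were developed from it. The comparisons ask how proteasome transcripts differ with each compound and between the compounds. The compounds were dissolved in DMSO, so vehicle and compound cannot be told apart in the differences from the untreated culture. With 1 culture and 1 array per group no test was possible, and every difference below is between 2 arrays, with no replicate check. In RNA from whole cultures, fewer cells of a type and less RNA per cell cannot be told apart.

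The 4 arrays came from 1 slide. Their median net signals lay between 138 and 167.5 scanner units, and 53.3% to 70.2% of spots were well above background, the highest share being on the untreated array. It occupied slide row 1 and the others slide row 2, so row and treatment cannot be told apart, and CA77 was read in scan 2 while the rest were read in scan 1. Of 8 fibroblast markers, 7 were detected on all 4 arrays, and Pdgfrb was detected on 1. With CA39, 6 of those 7 were higher than in the untreated culture (log2 difference of Fn1 1.47, Pdgfra 1.19, Col1a1 1.06) and S100a4 was lower (-0.22). Of the 7, 5 were lower with AR7 and 3 with CA77, Col1a1 being the lowest (-1.04 and -0.83), and 0 were higher with either. The summed level of the 7 was 19.88 (log2) in untreated cells, 19.64 under AR7, 20.25 under CA39 and 19.71 under CA77. Among markers of other cell types, Cdh1 was detected on no array, Epcam on 1 and Ptprc on 2, Cd68 had no matched probe, and 2 of 4 epithelial (Krt5, Krt14), the leukocyte marker Cd3e (10.04 to 10.38) and 3 of 3 endothelial markers were detected on all 4. Their summed levels ranged over the arrays from 8.82 to 9.29 for the epithelial and from 11.91 to 12.08 for the endothelial markers. The sums do not show single markers. Cdh5 was higher with AR7 and CA77 (0.62 and 0.53), while Pecam1 and Kdr were lower with CA77 (-0.20 and -0.21), and Kdr with CA39 (-0.19). Krt5 and Krt14 were higher with AR7 (0.17 and 0.27) and with CA39 (0.60 and 0.32). The part of these markers in the differences of proteasome genes was not tested.

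The proteasome degrades proteins that carry ubiquitin chains. Its core particle is a barrel whose outer rings are built of alpha subunits and whose inner rings are built of beta subunits, of which only some cut peptide bonds. A regulatory cap binds the barrel: the base of the cap holds a ring of ATPases that unfold the substrate, and its lid removes the ubiquitin chain. Dedicated chaperones build the rings and the base and leave the finished particle. Nearly all cells, fibroblasts included, express the constitutive core, and the transcription factors Nfe2l1 and Nfe2l2 are known to raise proteasome genes when degradation is impaired or oxidants accumulate.

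Repeat measurements exist only within an array, for 399 probes that were each printed at 10 spots. Their median SD between spots lay between 0.09 and 0.12 (log2) over the 4 arrays. From these SDs a difference between 2 arrays was given a tolerance of 0.16 (log2), or 1.12-fold, which is 1 SD of such a difference and covers spot error only. Psme1, a subunit of an activator cap, was itself printed 10 times, and its level was 14.82 ± 0.12 in untreated cells, 14.93 ± 0.12 under AR7, 14.69 ± 0.10 under CA39 and 14.85 ± 0.10 under CA77 (log2 of normalized signal, mean ± SD over 10 spots). Its spots overlapped between every pair of arrays, ranging from 14.65 to 15.03 on untreated and from 14.55 to 14.84 on CA39. The tolerance is that of a difference between single spots, and a mean of 10 spots has a smaller spot error. Neither the overlap nor its differences within the tolerance (0.11, -0.13 and 0.03) therefore show that Psme1 was level. Below, a gene is called higher or lower only where its difference was past the tolerance, and such calls, like those within the tolerance, hold for the processing reported unless another is named.

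With AR7, proteasome genes stayed close to the untreated culture. Of 43 members, 7 were higher and 0 were lower, against a background of 15% higher and 17.5% lower among the 27855 genes compared. The higher members were Psmd5, Psmd11, Psme4, Psmd4, Psmd13, Psmd14 and Psmf1. Of these, 3 belong to the lid (Psmd11, Psmd13, Psmd14), Psmd4 is a ubiquitin receptor of the base, Psmd5 is an assembly chaperone, Psme4 is a nuclear cap and Psmf1 is an inhibitor of the core. The median difference was 0.07 (log2) with an interquartile range of 0.12, beside a median of 0.00 over all genes. No member was past 1.5-fold (0 of 43), while 4.71% of all genes were. Scaling to the 75th percentile of each array gave 4 higher and 2 lower members and a median of 0.0012, where 12.8% of all genes were higher and 23.1% lower. Only Psmd5, Psmd11 and Psmf1 were past the tolerance in every processing alternative (3 of 7), and of the 36 members within it, 6 were past it in at least 1.

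With CA39, members lay on both sides of the untreated culture. There were 7 higher members (Psmd14, Psme4, Psmc1, Psmc6, Psmd9, Psma2, Psmb2) and 6 lower ones (Psmb10, Psmd10, Psme3, Psma6, Psmd11, Psma3), against a background of 20.9% higher and 27.2% lower among 27894 genes. The median was -0.02, with an interquartile range of 0.20, beside 0.00 over all genes, and its sign turned with correction for position on the array, in which the median deviation of the surrounding spots is subtracted from each spot (0.04), and over grid rows past 160 alone (0.0060). No member was past 1.5-fold (0 of 43), while 10.9% of all genes were, and the nearest to it were Psmb10 at -0.57 and Psmd10 at -0.56. Both were past it with scaling to the 75th percentile (-0.68 and -0.61), as were Psmb10 in the deposited table without scaling (-0.61) and Psmd10 with correction for position (-0.68). Scaling to the 75th percentile of each array gave 2 higher and 20 lower members (46.5%) and a median of -0.14. The median of all genes was -0.05 there, with 17.1% higher and 37.4% lower, and of the genes of like brightness 37.8% were lower. Correction for position gave 12 higher members (27.9%), where 6978 of all 27898 genes were, and 31.8% of those of like brightness. Psmd14, Psme4, Psmb10, Psmd10, Psme3, Psma6 and Psmd11 were past the tolerance in every alternative (7 of 13), and of the 30 members within it, 20 were past it in at least 1.

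With CA77, 6 members were higher (Psmd10, Psmd14, Psmf1, Psmb2, Psmd4, Psma6) and 0 were lower, against a background of 19.4% higher and 25.5% lower among 28126 genes. The median was 0.09, with an interquartile range of 0.12, beside -0.0051 over all genes, and no member was past 1.5-fold (0 of 43), while 6.47% of all genes were. In the deposited table without scaling between arrays the median of all genes with CA77 moved to -0.18 and that of the members to -0.06, so that the members lay above the other genes there too. That table gave 1 higher and 7 lower members (16.3%), where 9.24% of all genes were higher and 53.3% lower. Correction for position gave 15 higher (34.9%), where 23.4% of all genes were, and 23.8% of those of like brightness. Psmd10 alone of the 6 was past the tolerance in every alternative, and of the 37 members within it, 18 were past it in at least 1.

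**Figure D1:**
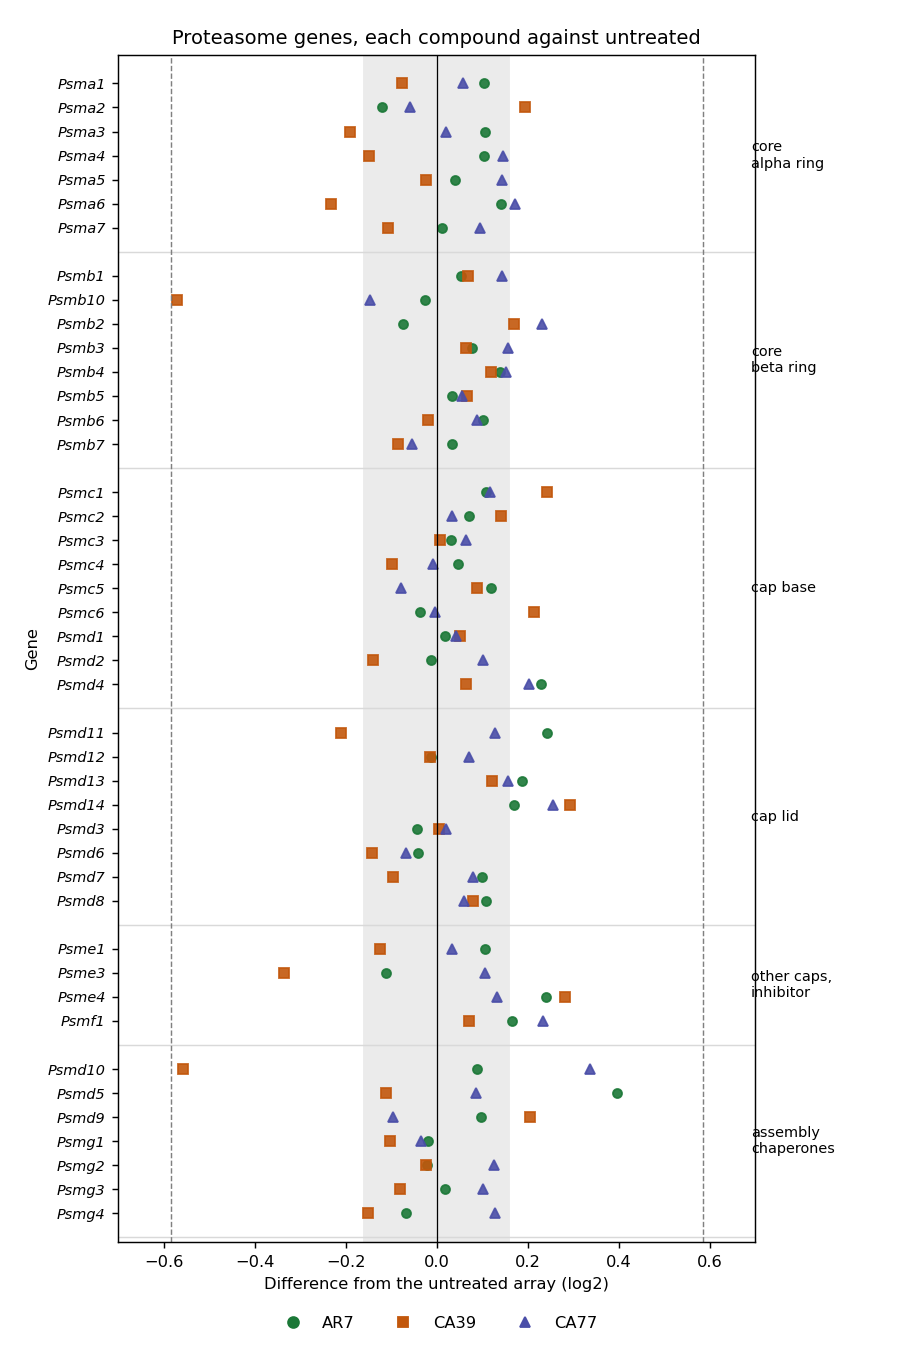
Difference of each of the 43 detected proteasome genes from the untreated array (log2, horizontal axis), 1 row per gene grouped by role, with circles for AR7, squares for CA39 and triangles for CA77 (1 array each). The grey band is the tolerance of 0.16 and the dashed lines mark 1.5-fold: Psmb10 and Psmd10 with CA39 lie nearest to those lines, at -0.57 and -0.56.

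Proteasome genes are bright on these arrays, so they were also set beside the 8725 other genes in the same range of mean signal (log2 11.2 to 17.2). Only this range was matched, not the distribution of signal within it. The part of signal level in the spreads and shares below was not tested, and they hold for the processing reported unless another is named. With AR7, 83.7% of the members were within the tolerance, and 72.2% of those genes. With CA39 the shares were 69.8% and 48.7%, and with CA77 they were 86.0% and 66.0%. In some alternatives that gap was narrower. With scaling to the 75th percentile and CA39, 4.65% of the members were higher and 46.5% lower, beside 17.4% and 37.8% of those genes. With correction for position and CA77, 34.9% of the members were higher and 0 lower, beside 23.8% and 15.8% of those genes. The interquartile range of the members was smaller than that of the genes of like brightness with each compound: 0.12 against 0.18 under AR7, 0.20 against 0.33 under CA39, and 0.12 against 0.22 under CA77. Past 1.5-fold were 0 members, beside 1.54% of the genes of like brightness under AR7, 6.60% under CA39 and 1.73% under CA77. The medians of these genes lay at -0.0013, -0.0041 and -0.0016. Above 0 were 31 of the 43 members with AR7, 20 with CA39 and 34 with CA77, beside 4325, 4294 and 4328 of the 8725. With scaling to the 75th percentile the AR7 median of the members was 0.0012, beside -0.04 for those genes. In the deposited table without scaling the CA77 median of the members was -0.06, beside -0.15 for those genes. All 3 comparisons share the untreated array, and members read on the same arrays are not replicates.

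**Figure D2:**
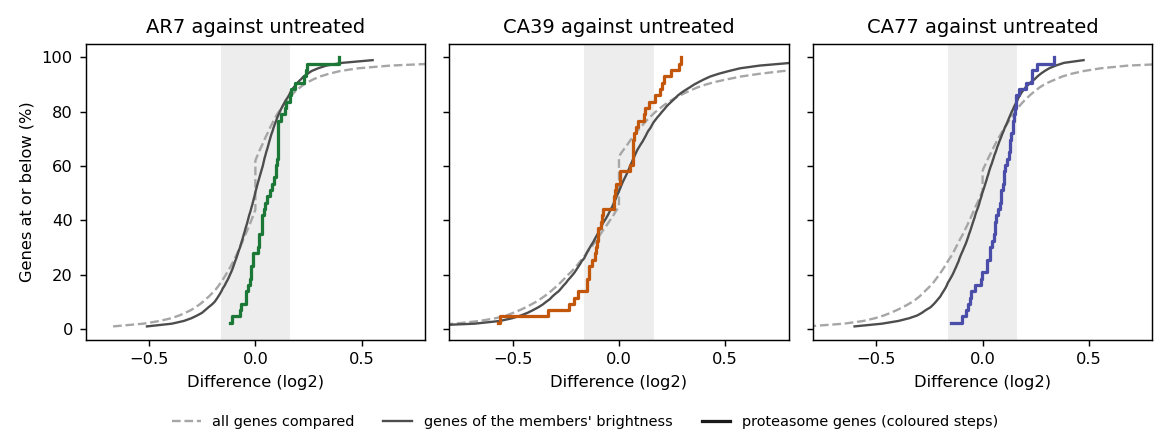
Share of genes at or below each log2 difference from the untreated array, for the 43 proteasome genes (coloured steps), the 8725 genes of like brightness (solid grey) and all genes compared (dashed), 1 panel per compound; the grey band is the tolerance of 0.16. In the processing shown, the members' steps are steeper than the solid line in each panel. With AR7 and CA77 they lie to its right over most of their range, with medians of 0.07 and 0.09. The AR7 median was 0.0012 with scaling to the 75th percentile, beside -0.04 for the genes of like brightness. The CA77 median was -0.06 in the deposited table without scaling, where all genes were at -0.18. The dashed line is vertical at 0 because differences led by an undetected value count as 0.

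The alpha ring forms the gate and outer wall of the core. Its 7 detected members had medians of 0.10 with AR7, -0.11 with CA39 and 0.10 with CA77. In the deposited table without scaling the CA77 median of each role named below, this ring included, lay below 0 (-0.10 to -0.03), above the -0.18 of all genes there. Psma6 was lower with CA39 and read 15.45 (log2 normalized signal) in untreated cells, 15.59 under AR7, 15.21 under CA39 and 15.62 under CA77. The CA39 array was the lowest, and its difference of -0.23 stayed past the tolerance in all 9 processing settings, the one reported included. Settings that change only the floor, the detection filter or the choice of probe cannot move a detected gene with 1 probe, such as this one. Its higher value with CA77 (0.17) was within the tolerance in 4 of the 5 alternatives that could move it (0.13 with correction for position). Psma3 read 16.57, 16.68, 16.38 and 16.59 on the arrays in the same order, with CA39 again the lowest (-0.19, within the tolerance with correction for position). Psma2 went the other way with CA39 (16.59 on untreated, 16.47, 16.78 and 16.53), a difference of 0.19 that was -0.0022 with scaling to the 75th percentile. Psma4 (15.10, 15.20, 14.95, 15.24), Psma5 (15.93, 15.97, 15.90, 16.07) and Psma7 (16.71, 16.72, 16.60, 16.80) were lowest with CA39 and highest with CA77, within the tolerance of the untreated array. A second probe of Psma4 gave differences of 0.06, -0.17 and 0.17. Psma1 lay within the tolerance with each compound (0.10, -0.08, 0.06).

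The beta ring holds the active sites. Psmb5, the chymotrypsin-like subunit, read 16.79 in untreated cells, 16.82 under AR7, 16.85 under CA39 and 16.84 under CA77. Psmb6, the caspase-like subunit, read 17.15, 17.25, 17.13 and 17.23, and Psmb7, the trypsin-like subunit, read 13.96, 13.99, 13.88 and 13.91. None of these 3 catalytic genes differed from the untreated array past the tolerance with any compound in the processing reported. With correction for position Psmb6 was higher with all 3 (0.29, 0.19 and 0.28), and Psmb7 was lower with CA39 under scaling to the 75th percentile (-0.19) and with CA77 in the deposited table without scaling (-0.19). Psmb10 replaces Psmb7 in the immunoproteasome, the form of the core induced by interferon. It read 16.30 in untreated cells, 16.27 under AR7, 15.73 under CA39 and 16.15 under CA77, so that only the CA39 array stood apart, at 0.673 of the untreated signal. That difference ranged from -0.68 to -0.45 over the 9 settings. Psmb2, a structural subunit, read 12.30, 12.22, 12.47 and 12.53, higher with CA39 (0.17) and CA77 (0.23). Scaling to the 75th percentile put these within the tolerance (0.02 and 0.13), as did the quantile-normalized processed signal (0.06 and 0.13), and the deposited table did so for CA77 (0.04). Psmb4, also structural, read 16.33, 16.47, 16.45 and 16.48, within the tolerance. Psmb1 and Psmb3 lay between 0.05 and 0.16 with each compound. The 8 detected members had medians of 0.04, 0.07 and 0.12 with AR7, CA39 and CA77, and scaling to the 75th percentile turned the first and second of them to -0.02 and -0.10, as grid rows over 160 alone did the second (-0.05).

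**Figure D3:**
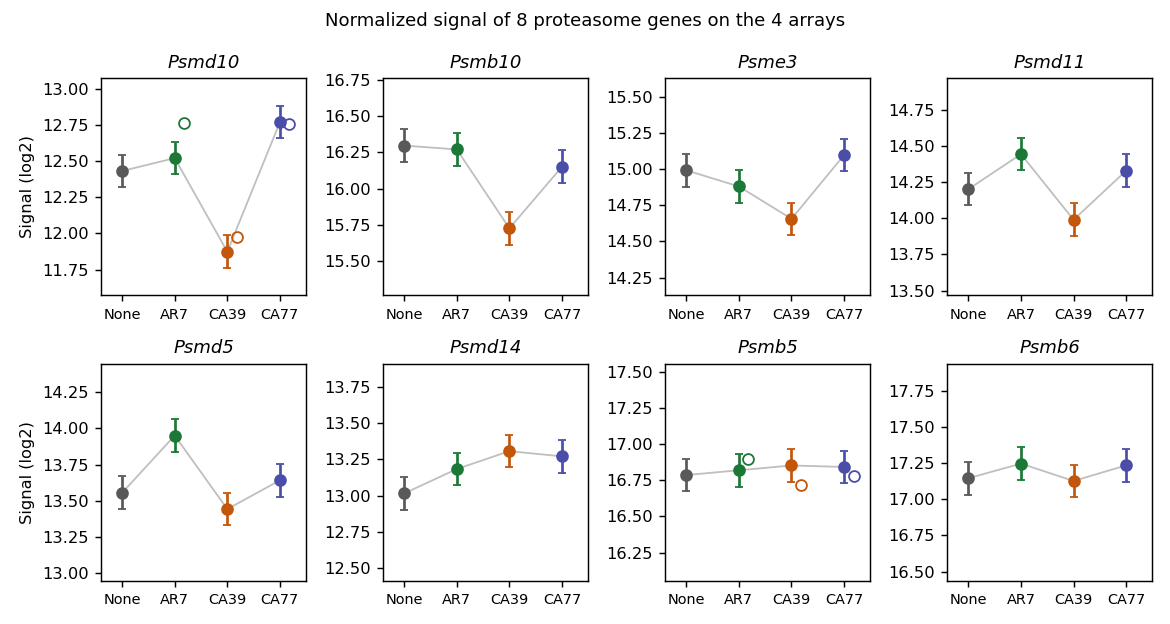
Normalized signal (log2, vertical axis) of 8 proteasome genes on the untreated array (None) and the AR7, CA39 and CA77 arrays, 1 point per array, with bars of 0.11, the SD between spots behind the tolerance. Open circles show a second probe of the gene, shifted to the same untreated value. Psmd10 and Psmb10 dip on the CA39 array (11.87 and 15.73), Psmd5 is highest on AR7 (13.95), and Psmb5 is nearly level; each panel spans the same range in log2.

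In the base of the cap, the 6 ATPases (Psmc1 to Psmc6), the scaffolds Psmd1 and Psmd2 and the ubiquitin receptor Psmd4 had medians of 0.05 with AR7, 0.06 with CA39 and 0.04 with CA77. With scaling to the 75th percentile the medians of the base turned to -0.01 with AR7 and -0.11 with CA39. Psmc1 read 16.12 in untreated cells, 16.22 under AR7, 16.36 under CA39 and 16.23 under CA77, highest with CA39 (0.24, and 0.08 with scaling to the 75th percentile), and its second probe gave 0.08, 0.17 and -0.0021. Psmd4, a receptor for ubiquitin chains, read 16.30, 16.53, 16.36 and 16.50 and was higher with AR7 (0.23, and 0.13 with scaling to the 75th percentile) and CA77 (0.20, and 0.05 in the deposited table). Psmc6 was at 0.21 with CA39, but within the tolerance with scaling to the 75th percentile (0.09) and with the quantile-normalized processed signal (0.15). Psmc4 (14.30, 14.35, 14.21, 14.30) and Psmd2 (15.22, 15.21, 15.08, 15.32) had the lowest mean differences of the base, and neither was past the tolerance. With scaling to the 75th percentile Psmd2 was at -0.23 with CA39. Psmc2, Psmc3 and Psmd1 also lay within it with each compound, as did Psmc5 in the processing reported (0.17 with CA39 after correction for position, -0.24 with CA77 in the deposited table).

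The lid removes ubiquitin chains through Psmd14, its metalloprotease. Psmd14 read 13.02 in untreated cells, 13.18 under AR7, 13.31 under CA39 and 13.27 under CA77. Its differences were 0.17, 0.29 and 0.26, and it was the only member past the tolerance in each of the 3 comparisons in the processing reported. These share the untreated array, the lowest of the 4 for this gene, and 2.75% of the 27549 genes compared with all 3 compounds, and 2.90% of those of like brightness, were higher with each (members 2.33%), so nothing is read from this count. With correction for position Psmb6, Psmd13, Psme4 and Psmf1 were past it with each compound too. That made 11.6% of the members, beside 4.29% of all genes and 6.09% of those of like brightness. No member was past it with each compound with scaling to the 75th percentile. The CA39 difference of Psmd14 stayed past the tolerance in all 9 settings, the AR7 difference fell within it in 2 and the CA77 difference in 1. Psmd11, a scaffold of the lid, read 14.20, 14.44, 13.99 and 14.33, higher with AR7 (0.24) and lower with CA39 (-0.21), and each of these held its side in all 9 settings. Psmd13 read 13.98, 14.17, 14.10 and 14.14, all above the untreated array, with the AR7 difference past the tolerance (0.19) except with scaling to the 75th percentile (0.11) and with the quantile-normalized processed signal (0.14). Psmd6 (14.72, 14.68, 14.58, 14.65) and Psmd3 (16.81, 16.76, 16.81, 16.82) had the lowest mean differences of the lid. They lay within the tolerance, as did Psmd8 and Psmd12 in the processing reported. Psmd7 with CA39 was within it there (-0.10) but lower in 3 of the 5 alternatives that could move it (-0.27 with scaling to the 75th percentile, -0.17 in the others). The median over the 8 lid genes was 0.10, -0.0044 (0.0069 over all probes of a gene, -0.18 with scaling to the 75th percentile) and 0.08.

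Caps other than the ATPase cap were represented by 3 genes, and the core has 1 inhibitor in the set. Psme3, which forms a nuclear cap that works without ubiquitin, read 14.99 in untreated cells, 14.88 under AR7, 14.66 under CA39 and 15.10 under CA77, and was lower with CA39 (-0.34, from -0.47 to -0.30 over the 9 settings). Psme4, a nuclear cap known from the removal of histones in sperm cells, was higher with AR7 and CA39 (0.24 and 0.28), while its second probe gave -0.05 and 0.07, so the probes disagree. With CA77 the brighter probe gave 0.13 and the second -0.21. Psmf1 read 11.60, 11.76, 11.67 and 11.83 and was higher with AR7 (0.16) and CA77 (0.23, and 0.11 in the deposited table). The medians of these 4 genes were 0.14, -0.03 and 0.12, and the second of them was 0.13 with correction for position.

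The assembly chaperones held the widest difference of the set with AR7 (Psmd5) and with CA77 (Psmd10), in the processing reported. Psmd10, which escorts the ATPase Psmc4 during assembly of the base and is also known as gankyrin, read 12.43 in untreated cells, 12.52 under AR7, 11.87 under CA39 and 12.77 under CA77. It was lower with CA39 (-0.56, 0.679 of the untreated signal) and higher with CA77 (0.34), and both held in all 9 settings. A second Psmd10 probe, at another place on the array, gave -0.46 with CA39 and 0.32 with CA77, and 0.33 with AR7 where the brighter probe gave 0.09. Psmd5, which escorts Psmc2, read 13.55, 13.95, 13.44 and 13.64. It was higher with AR7 (0.40), with the AR7 array the highest of the 4 and a range of 0.35 to 0.46 over the settings. Psmd9, which escorts Psmc3, read 11.18, 11.27, 11.38 and 11.08, and was higher with CA39 (0.20) by its brighter probe but at -0.02 by its second. With CA77 its brighter probe gave -0.10 and its second 0.22. Psmg1, which builds the alpha ring, read 14.90, 14.88, 14.80 and 14.87, with a second probe at -0.21 for CA39, and its partners Psmg2, Psmg3 and Psmg4 also lay within the tolerance. The medians of the 7 chaperones were 0.02 (-0.02 with scaling to the 75th percentile), -0.10 and 0.10. The ATPases that Psmd10 and Psmd5 escort, Psmc4 and Psmc2, lay within the tolerance with each compound.

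To show the regulatory sequence of the genes that stood apart, the 120 bases directly before the annotated start are given for the 5 members whose differences were largest or recurred over the compounds, and for the catalytic Psmb5, whose level was nearly the same on all arrays. Sequences are those of RefSeq for mouse assembly GRCm38.p6, written 5′ to 3′ toward the gene. Capitals mark matches on either strand to CCAAT (bound by the factor NF-Y), to TGACNNNGC (the core of the antioxidant response element, bound by Nfe2l1 and Nfe2l2) and to GGGCGG (bound by Sp1).
Psmd10 (chrX:140956712-140956831, minus strand): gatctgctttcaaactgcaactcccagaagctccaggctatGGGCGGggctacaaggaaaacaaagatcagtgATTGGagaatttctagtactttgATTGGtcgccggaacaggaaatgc
Psmb10 (chr8:105938393-105938512, minus strand): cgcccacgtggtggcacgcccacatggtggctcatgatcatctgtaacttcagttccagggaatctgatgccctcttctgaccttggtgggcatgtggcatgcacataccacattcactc
Psme3 (chr11:101316093-101316212, plus strand): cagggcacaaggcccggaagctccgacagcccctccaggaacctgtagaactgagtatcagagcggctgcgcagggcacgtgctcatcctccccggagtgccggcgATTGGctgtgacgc
Psmd14 (chr2:61711574-61711693, plus strand): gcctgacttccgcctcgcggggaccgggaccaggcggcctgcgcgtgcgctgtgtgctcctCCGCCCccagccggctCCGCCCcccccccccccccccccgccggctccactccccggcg
Psmd5 (chr2:34870963-34871082, minus strand): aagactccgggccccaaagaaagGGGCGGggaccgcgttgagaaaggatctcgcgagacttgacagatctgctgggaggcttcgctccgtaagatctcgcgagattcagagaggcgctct
Psmb5 (chr14:54617996-54618115, minus strand): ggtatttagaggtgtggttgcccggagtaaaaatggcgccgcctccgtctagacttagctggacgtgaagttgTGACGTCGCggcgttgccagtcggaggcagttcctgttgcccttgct

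In the 120 bases shown, Psmd10 held 2 matches to CCAAT and 1 to GGGCGG, and Psmb10 held none of the motifs searched (0 of each). Psmb10 was the lowest member with CA39 in the processing reported, but not with correction for position (-0.45, and Psmd10 -0.68). Psme3 held 1 match to CCAAT, Psmd14 held 2 to GGGCGG, Psmd5 held 1 to GGGCGG and Psmb5 held 1 to TGACNNNGC, and matches to different motifs did not overlap there. The longer windows of 300 bases held further matches for Psmd10 (3 to CCAAT, 2 to GGGCGG), Psmd14 (3 and 3) and Psmd5 (0 and 3). Over 39 windows of 300 bases for 37 members (250 before to 50 after the start), CCAAT was found in 33.3%, TGACNNNGC in 15.4% and GGGCGG in 53.8%, beside 37.4%, 12.4% and 35.7% of all 32851 windows of this length. The members with TGACNNNGC were Psmb5, Psmb6, Psmc6, Psmd12, Psmd9 and Psme4. A match is a description of the letters and says nothing of binding.

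The compounds were next compared with each other, in 3 pairs at the same dose and time. AR7 and CA77 lay close: the median of CA77 minus AR7 over the 43 members was 0.02 with an interquartile range of 0.13. It was -0.17 in the deposited table without scaling, beside -0.21 for all genes there, and -0.03 over grid rows past 160. In that pair 4 members were higher with CA77 (Psmb2, Psmd10, Psme3, Psmg4) and 3 lower (Psmd5, Psmc5, Psmd9), against 15.3% higher and 19.7% lower among 25344 genes. The deposited table gave 0 higher and 23 lower (53.5%), where 4.36% of all genes were higher and 60.1% lower. None was past 1.5-fold (0 of 43), while 4.73% of all genes were. Psmd5 was the widest of these, at -0.31, and the only one past the tolerance in all 9 settings. The probes disagree for Psmd9 and Psmd10 in this pair, their second probes giving 0.25 and -0.0087.

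Between CA39 and AR7 the median was -0.08 (-0.13 to -0.02 over the alternatives), beside -0.03 over all genes. Of 43 members, 3 were higher with CA39 (Psma2, Psmc6, Psmb2) and 12 lower, among them Psmd10, Psmb10, Psmd5, Psmd11 and Psma6, against 26.4% higher and 32.2% lower among 23075 genes. The lower share of members was 27.9%, beside 28.0% of the genes of like brightness. Of these 15 calls 12 were past the tolerance in every alternative, and those of Psmb2, Psma1 and Psmd4 were not (0.15, -0.11 and -0.08 at their smallest). Psmd10 was past 1.5-fold, at -0.65 (0.639-fold), and was the only member to be so in the processing reported, where 14.2% of all genes were, while Psmb10 also was in the deposited table without scaling (-0.60). The second Psmd10 probe gave -0.79. Psmd5 differed by -0.51, Psmb10 by -0.55, Psmd11 by -0.45 and Psma6 by -0.38 in this pair.

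Between CA39 and CA77 the median was -0.09, and 0.05 in the deposited table without scaling, where the median of all genes was 0.13. There were 4 members higher with CA39 (Psmd9, Psma2, Psmc6, Psmc5) and 15 lower, against 25.3% higher and 26.4% lower among 25457 genes. The lower share of members was 34.9%, beside 28.0% of the genes of like brightness. The deposited table turned the counts to 9 higher and 5 lower, where 46.3% of all genes were higher and 13.6% lower. Scaling to the 75th percentile gave 1 higher and 25 lower (58.1%), where 33.3% of all genes were lower, and 37.4% of those of like brightness. The second probe of Psmd9 gave -0.24 where the brighter one gave 0.30, so the probes disagree. Of the 7 alpha subunits 5 were lower (Psma3, Psma4, Psma5, Psma6, Psma7), with a median of -0.20 for the ring, and 4 of the 7 chaperones were lower (Psmd10, Psmg4, Psmd5, Psmg3), with a median of -0.18 (-0.0075 in the deposited table without scaling, where the ring was at -0.09). In the base the median was 0.0089, and -0.12 with scaling to the 75th percentile, and in the beta ring it was -0.07, and 0.07 in the deposited table. Psmd10 was again the only member past 1.5-fold in the processing reported, at -0.90 (0.538-fold) with a second probe at -0.78, where 13.2% of all genes were. Psma6, Psmb10, Psmd10, Psmd11 and Psme3 were lower with CA39 in all 9 settings, and no other of the 19 calls was. Since each group is 1 array, no interval for these differences between compounds could be given.

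**Figure D4:**
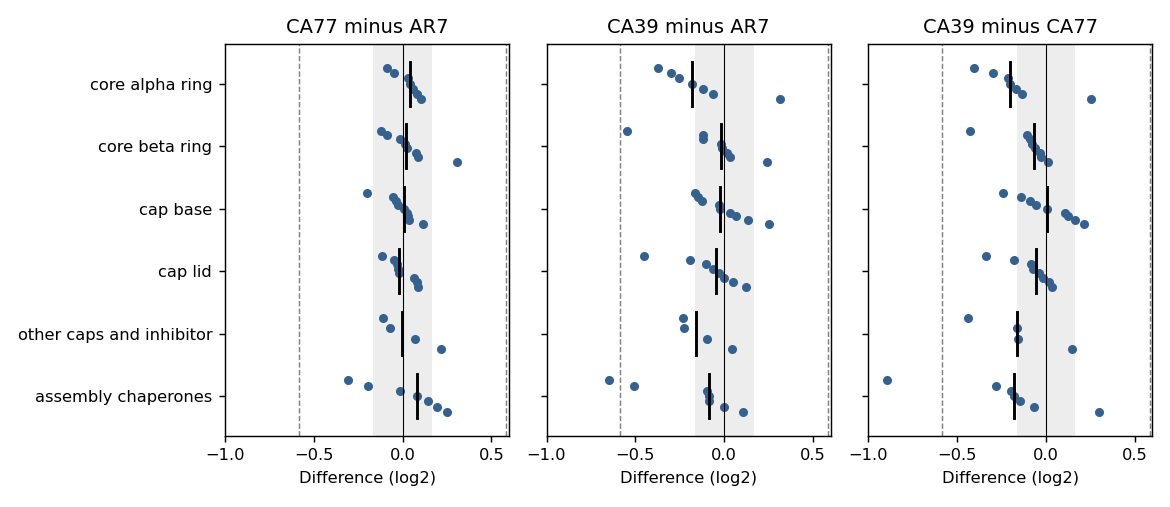
Difference between compounds for each detected proteasome gene (log2, horizontal axis), by role (vertical axis), for CA77 minus AR7, CA39 minus AR7 and CA39 minus CA77; points are genes, black bars are medians of the role, the grey band is the tolerance of 0.16 and dashed lines mark 1.5-fold. CA77 and AR7 lie mostly within the band, and Psmd10, a chaperone, is the lowest point against AR7 (-0.65) and against CA77 (-0.90).

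Genes that work with the proteasome were read from a list of 32, of which 29 were measured and 26 detected on all 4 arrays. Among these 26, AR7 had 5 higher and 2 lower, CA39 had 6 and 9, and CA77 had 3 and 2, against the same backgrounds as above, and none was past 1.5-fold of the untreated array. Of the transcription factors of proteasome genes, Nfe2l1 read 10.47 in untreated cells, 10.48 under AR7, 10.93 under CA39 and 10.51 under CA77, and was higher with CA39 (0.46). Nfe2l2 read 14.59, 14.79, 14.37 and 15.06, higher with AR7 and CA77 and lower with CA39 (0.20, -0.22 and 0.46, the second of them -0.12 with correction for position), which put CA39 at a difference of -0.69 from CA77. Nfe2l3 and Ddi1, the protease relative of Ddi2, were not well above background on any array, and Ngly1, which processes Nfe2l1, was detected on 1.

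The inducible subunits left out by the symbol rule, Psmb8 and Psmb9, are the other active sites of the immunoproteasome. Psmb8 read 8.05, 8.24, 7.86 and 8.30 over the arrays, with differences of 0.19, -0.20 and 0.25 (the last 0.04 in the deposited table). Psmb9 read 11.82, 11.92, 11.70 and 11.96, within the tolerance of the untreated array. On each of these genes, as on Psmb10, CA39 was the lowest array in the processing reported. Pomp, which matures the core, had differences of -0.01, -0.17 and -0.04 by its brighter probe and -0.14, -0.09 and -0.04 by its second, so that it passed the tolerance with CA39 on 1 probe only. Adrm1, a ubiquitin receptor of the cap, had 0.05, -0.02 and -0.11. The deubiquitinases Usp14 and Uchl5, which bind the cap, were lower with CA39 (-0.34 and -0.28), and a second probe of Usp14 gave -0.49 with CA39 and -0.17 with CA77. Sem1, another proteasome-bound protein, was higher with CA39 (0.20), as were Ubqln2 (0.44), Akirin2 (0.32) and Uba1 (0.18, and -0.04 by its second probe). Ddi2, Ubqln1 and Ubqln4 were lower with it (-0.27, -0.22 and -0.26). Sem1 and Uba1 were within the tolerance with scaling to the 75th percentile (0.15 and 0.05), as was Ddi2 in the deposited table (-0.157). Ecpas, a scaffold that holds proteasomes together, was lower with all 3 compounds (-0.28, -0.26, -0.48), as 7.41% of all genes were, and Zfand2a, a stress-induced proteasome-binding protein, was higher with all 3 (0.31, 0.17, 0.33), as 2.75% of all genes were, the second difference being 0.09 with scaling to the 75th percentile. Ubb, which encodes a chain of ubiquitin, lay within the tolerance with each compound (0.15, 0.11 and 0.08), and at 0.19 with AR7 in the deposited table.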

How the data were processed

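RNA of 4 NIH-3T3 cultures was labelled with Cy3 by the authors and read with Feature Extraction 10.7.3.1. Their scanner output holds the intensity of each spot, unscaled and not logged, and the deposited series table equals the background-subtracted intensity at all 62976 spots of each array. Per the labels the authors used oligo and RMA, and RMA values were not analysed here.

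Spot median and local background median intensities entered normexp correction without offset in limma 3.58.1 (R 4.3.3). After removal of control spots came quantile normalization and log2. Spots that the scanner software had marked as outliers were dropped (142, 328, 328 and 321 on untreated, AR7, CA39 and CA77), none of them from a member (0). The 55378 probes with a value on all arrays were matched by accession to RefSeq GRCm38.p6, which named 27512 of them. The brightest probe stood for a gene, and 10 members had a second probe. Values not well above background were raised to the 1st percentile of detected signal. Probe sequences were not used, and cross-hybridisation between related genes was not tested. Differences have no test, since each group is 1 array, and the number of arrays limits their precision. Scripts were tested on simulated data.

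Every member was named. Values on all arrays were given for Psmb5, Psmb6, Psmb7, members past 1.5-fold in any comparison, and the 2 highest and 2 lowest of each role with over 4 detected members by the mean of the 3 differences; other values were added after they were seen. Of the partner list, Nfe2l1, Nfe2l2, Pomp, Adrm1, Psmb8 and Psmb9 were to be named, and the others were named after their values were seen. Members and lists were chosen with earlier results of these data known. Some marker and partner results are not reported here.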

Additional observations from a re-analysis of the deposited data

How the results depend on the processing

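No paired analysis was possible because each group is 1 array, and no array could be left out in turn. Over alternative backgrounds, scalings, probe choices, filters and positions, the members' median ranged from 0.0012 to 0.11 with AR7, from -0.14 to 0.04 with CA39 and from -0.06 to 0.12 with CA77. Leaving out alternatives that cannot move a detected gene, 142 of 165 medians over members or roles kept their sign. Scaling to the 75th percentile gave 4 higher and 2 lower members with AR7, and 2 higher and 20 lower with CA39. The quantile-normalized processed signal gave 4 higher (9.3%) and 8 lower (18.6%) with CA39, where 21.3% of all genes were higher and 29.2% lower. Correction for position on the array gave 9 higher and 1 lower with AR7, where 17.6% of all genes were higher and 15.7% lower. It gave 12 higher with CA39 and 15 higher with CA77, beside the shares given above. Grid rows over 160, in which 24 of the 43 members had a probe, gave 3 higher and 2 lower with CA39 and 3 higher with CA77. The shares of all genes in those rows are not given, so nothing is read from these counts. At 2 times the tolerance, 1 member was higher with AR7, 0 were higher and 3 lower with CA39, and 1 was higher with CA77. The shares of all genes past that limit are not given, and nothing is read from these counts either. At 1.5-fold, 0 were called with any compound in the processing reported, and 2 with CA39 under scaling to the 75th percentile. The deposited table without scaling gave 1 higher and 7 lower with CA77 and a median of -0.17 for CA77 minus AR7, where the median of all genes was -0.21. Taken relative to the median of the other genes, the members' median stayed above 0 in all 10 alternatives with AR7 (0.0071 to 0.11) and CA77 (0.07 to 0.12), and lay between -0.09 and 0.04 with CA39. These alternatives reprocess the same arrays, and those on the floor or filter leave the members' values as they were. Each of these relative medians was smaller than the tolerance. The cause of these shifts was not tested. Of the 26 differences from the untreated array past the tolerance, 11 were past it in all 9 settings, of which those on the floor, filter or probe leave most members as they were. Of 10 members with 2 probes, the probes agreed within the tolerance for 7 with AR7, 8 with CA39 and 8 with CA77.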

Other observations

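Symbols close to the rule but outside it were also read. Psme2b, a copy of the activator cap gene Psme2, read 16.68 in untreated cells, 16.68 under AR7, 16.33 under CA39 and 16.82 under CA77, lowest on CA39. Whether its probes also read Psme2, a near copy to which no probe was matched, was not tested. Psmc3ip, a recombination factor named for its binding to Psmc3, read 12.50, 12.42, 12.14 and 12.37. Psme3ip1, which binds Psme3, read 12.73, 12.96, 12.78 and 12.74.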
